A study of Meleagris gallopavo with 24 samples.

Results

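Salinomycin (Sal) in the feed was followed by expression changes of opposite sign in liver and in heart for 1685 of the 11158 turkey genes tested (15.1%). These opposing genes are genes whose Sal effect differed between the tissues by the tissue by treatment term of 1 edgeR fit, with a Benjamini-Hochberg p not above 0.05 and a log2 difference of 1 or more in size, and whose fitted log2 fold change (Sal against control) had opposite signs in liver and heart. The term called 1838 genes (16.5%), 1056 with the liver change above the heart change (9.46%) and 782 with it below (7.01%), while 33.9% of genes had an unadjusted p under 0.05 for it. Of the called genes 91.7% were opposing and 153 had the same sign in both tissues. Of all genes tested 63.6% had opposite signs, and a call for a large difference itself favours them. In 959 opposing genes (8.59%) the liver value was above 0 and the heart value below 0, and these are called liver-up here. In 726 (6.51%) the liver value was below 0 and the heart value above 0, and these are called liver-down. Both names describe the sign of fitted values, not a test in each tissue.

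The libraries came from the liver and heart of turkeys (Meleagris gallopavo) sampled in week 13. Sal-exposed birds had received feed with 21 mg Sal per kg in weeks 12 to 13, an estimated 0.9 mg per kg body weight a day, and control birds had received feed without Sal. The fit held 6 Sal-exposed and 5 control liver libraries and 6 Sal-exposed and 6 control heart libraries, 23 of the 24 libraries of the series. Liver control 3 was left out for its depth of 3729229 counts, against 15706646 to 35979378 counts in the others. By the methods of the study, both organs were taken from the same 6 birds of each group. Which liver and which heart belong to 1 bird is not given in the labels, so the fit treats all libraries as independent. The tissue pieces hold several cell types, and in such bulk samples fewer cells of a type and less RNA per cell cannot be told apart.

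Sal is a polyether ionophore, a compound that carries monovalent cations across cell membranes, and is used in poultry feed against coccidia. Heart and skeletal muscle are the usual targets of its toxicity, and the liver is where it is metabolized. A tissue by treatment term asks whether 1 exposure moved a gene differently in the organs, and an opposing gene is the case in which even the sign differs.

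Some libraries stood apart from their groups before any gene was considered. Levels are given as CPM, the read count of a gene relative to the TMM-scaled library total. A span trend was taken for every library, the rank correlation (Spearman's rho) over genes of genomic span, introns included, with the deviation of the log2 CPM from the tissue mean. Among the Sal-exposed hearts, hearts 1 and 5 had the lowest values, -0.372 and -0.36, against up to 0.226 in the other Sal-exposed hearts, and control heart 3 had -0.179 against 0.179 to 0.282 in the other control hearts. In liver the trend was 0.111 ± 0.135 (SD, n = 6) with Sal and -0.112 ± 0.0845 (SD, n = 5) in controls (two-sided exact permutation p = 0.0173, adjusted p = 0.0519 over 6 tests of library measures). In heart it was -0.0661 ± 0.263 with Sal and 0.157 ± 0.169 in controls (SD, n = 6 each, exact permutation p = 0.128, adjusted p = 0.192), so the group means stood in the opposite order to liver. Genes with at least 1 count numbered 11182.5 ± 147 in Sal-exposed livers and 10160.2 ± 738 in control livers (SD, n = 6 and 5, exact permutation p = 0.00866, adjusted p = 0.0519), and 10952.2 ± 219 in Sal-exposed hearts and 11172.8 ± 120 in control hearts (SD, n = 6 each, exact permutation p = 0.0628, adjusted p = 0.126). The part of these library measures in the opposing genes was not tested beyond the alternatives given beside the results.

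The labelled tissues carried their markers. The 9 hepatocyte markers in the table (of 10 listed) summed to a median of 226579 CPM in Sal-exposed livers and 209434 CPM in control livers, and to at most 69 CPM in any heart. Cardiomyocyte markers (6 of 12 in the table) summed to 9465 to 77929 CPM in Sal-exposed hearts and 8541 to 26399 CPM in control hearts. In liver their sum was 4.31 to 27.5 CPM with Sal against 0 to 5.27 CPM in controls. MYL2, MYL3 and TNNT2 were above 0 in every Sal-exposed liver, with medians of 5.07, 3.88 and 2.21 CPM against 0.0356, 0.178 and 0 CPM in control livers, and 4 of the 6 markers were called higher in liver with Sal. PLN, at most 4.63 CPM in any heart, was at 0 in every liver. The part of heart muscle RNA in the liver values was not tested.

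Most opposing genes passed the adjusted p in liver, and few did in heart. Of the 1685 opposing genes, 1130 passed an adjusted p of 0.05 in liver and 37 in heart, 10 of them in both tissues, and 528 in neither. For most members the heart sign therefore carries no test of its own. Over all genes, edgeR called 935 genes higher (8.38%) and 468 lower (4.19%) with Sal in liver, against 12 higher (0.108%) and 55 lower (0.493%) in heart. At the adjusted p alone the shares were 18.6% in liver and 0.753% in heart, and 18.5% for the term itself. At an unadjusted p of at most 0.05 in both tissues, 209 liver-up genes (1.87% of genes tested) and 266 liver-down genes (2.38%) remained. CPM ranges of Sal and control that did not overlap in either tissue were found for 19 liver-up and 10 liver-down genes, where 0.17% and 0.108% of all genes tested showed such a pattern and 0.0717% had ranges apart in the same direction. Opposite signs alone, with no test, were present in 7091 genes (63.6%). The members nearest the thresholds were SENP7, with an adjusted p of 0.0499 just inside and a log2 difference of 1.43, and MTA3, with 0.0501 just outside and -1.29. At the fold threshold the nearest gene inside had a log2 difference of 1.0002 and the nearest outside 0.9972.

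**Figure D1:**
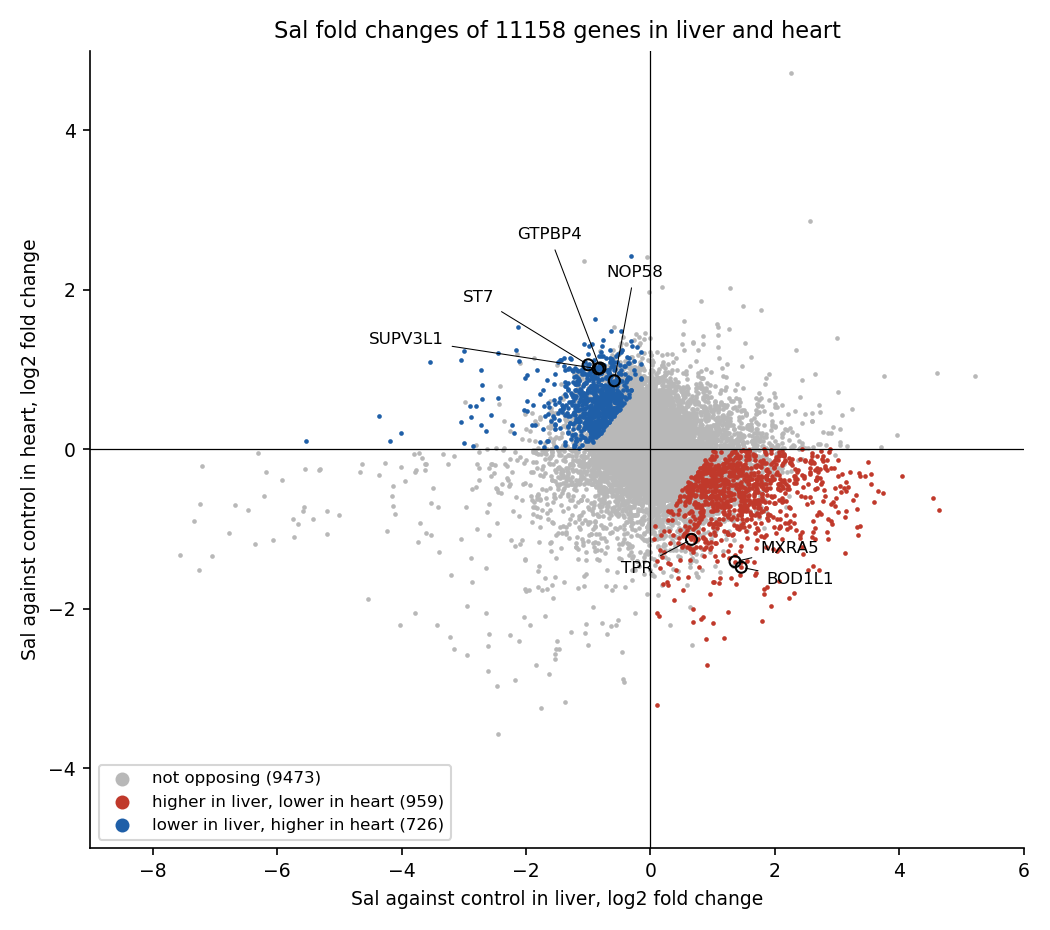
Log2 fold change of Sal against control in liver (horizontal) and in heart (vertical) for each of the 11158 genes tested, with 1 gene outside the axes. Red points are the 959 liver-up genes, blue points the 726 liver-down genes and grey points all others, and circles mark the labelled genes, all past the adjusted p in both tissues. Red and blue points lie on opposite sides of both axes by their definition, with medians of 1.34 in liver and -0.53 in heart for red and -0.88 in liver and 0.60 in heart for blue.

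With opposite signs, 10 genes passed the adjusted p in both tissues (0.0896% of genes tested), 6 of them liver-up and 4 liver-down. Of the liver-up ones, BOD1L1 and TPR are known for roles in the nucleus and MXRA5 for one in the matrix. BOD1L1 (ENSMGAG00000017730, chromosome 4, 59798725 to 59813816, Turkey_5.1), which protects stalled replication forks, had 13.3 to 20.1 CPM in Sal-exposed livers (median 17.8) against 4.90, 6.09, 6.31, 6.96 and 7.05 CPM in control livers. In the hearts it had 2.37 to 10.3 CPM with Sal (median 6.13) and 14.0 to 20.5 CPM in controls (median 19.5). The groups did not overlap in either tissue. The log2 fold change was 1.46 ± 0.26 (SE, edgeR adjusted p = 0.000749) in liver and -1.48 ± 0.24 (adjusted p = 0.00244) in heart, a difference of 2.94 ± 0.36 (adjusted p = 6.56e-05).

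TPR (ENSMGAG00000001013, chromosome 10, 409792 to 455059), which forms the nuclear basket of the nuclear pore, had 31.4 to 49.3 CPM in Sal-exposed livers (median 42.6) against 18.6, 24.1, 26.8, 28.6 and 31.6 CPM in control livers. Its heart levels were 12.1 to 23.4 CPM with Sal (median 15.4) and 29.4 to 44.9 CPM in controls (median 35.6). The heart groups were apart, whereas in liver the lowest Sal-exposed library fell just below the highest control. Its fold changes were 0.66 ± 0.19 in liver (SE, edgeR adjusted p = 0.0202) and -1.13 ± 0.19 in heart (adjusted p = 0.00244).

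MXRA5 (ENSMGAG00000014730, chromosome 1, 127241903 to 127255160), a secreted protein of remodelled matrix, had 2.88 to 10.2 CPM in Sal-exposed livers (median 5.87) against 0.889, 2.14, 2.20, 2.75 and 3.59 CPM in control livers, and only the lowest Sal-exposed and the highest control library crossed. In heart it had 17.9 to 57 CPM with Sal (median 28.6) and 62.9 to 143 CPM in controls (median 85.7), with no overlap. The log2 fold change was 1.36 ± 0.36 in liver (SE, edgeR adjusted p = 0.0102) and -1.41 ± 0.33 in heart (adjusted p = 0.0388). Among the other liver-up members of the 10 are genes without a symbol, ENSMGAG00000006197 (log2 fold change 1.82 in liver and -1.81 in heart) and ENSMGAG00000006816 (1.85 in liver and -1.22 in heart).

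The 4 liver-down genes of this group were ST7, NOP58, GTPBP4 and SUPV3L1, of which all but ST7 are known for RNA or ribosome metabolism. ST7 (ENSMGAG00000008883, chromosome 1, 24011537 to 24119325) had 17.4 to 24.9 CPM in Sal-exposed livers (median 20.2) against 30.3, 36.9, 43.9, 47.7 and 48.0 CPM in control livers. In the hearts the order was reversed, with 17.4 to 27.3 CPM with Sal (median 22.7) and 7.66 to 13.5 CPM in controls (median 10.3). Both pairs of groups were apart, and the log2 fold changes were -1.0 ± 0.18 in liver (SE, edgeR adjusted p = 0.00084) and 1.06 ± 0.18 in heart (adjusted p = 0.0026).

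NOP58 (ENSMGAG00000008189, chromosome 7, 11262598 to 11286698), a core protein of the box C/D particles that guide methylation of ribosomal RNA, had 30.1 to 50.6 CPM in Sal-exposed livers (median 40.1) against 54.4, 56.2, 58.4, 64.4 and 65.0 CPM in control livers. Sal-exposed hearts had 24.6 to 54.1 CPM (median 31.3) and control hearts 15.3 to 22.9 CPM (median 18.4). No library of either Sal group lay within the range of its controls. GTPBP4 (ENSMGAG00000016591, chromosome 6, 9894574 to 9904719), a GTPase that matures the large ribosomal subunit, had 42.5 to 90.6 CPM in Sal-exposed livers (median 52.1) against 75.4, 94.5, 101, 119 and 129 CPM in control livers, and 77.1 to 204 CPM in Sal-exposed hearts (median 96.6) against 44.3 to 78.6 CPM in control hearts (median 52.4). Its ranges overlapped in both tissues. SUPV3L1 (ENSMGAG00000004251, chromosome 8, 10329168 to 10339499), the helicase of the mitochondrial RNA degradosome, had 16.5 to 25.6 CPM in Sal-exposed livers (median 18.1) against 25.7, 32.4, 39.5, 40.5 and 41.1 CPM in control livers, and 32.6 to 94.2 CPM in Sal-exposed hearts (median 39.6) against 22.1 to 29.8 CPM in control hearts (median 22.9). Sal heart 1 was the highest of its group for NOP58, GTPBP4 and SUPV3L1.

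The number of genes past the adjusted p in both tissues was sensitive to single libraries. It was 26 without Sal heart 3, 19 without liver control 2 and 3 without Sal heart 5 or without control heart 6. It was 4 without control heart 1 or 4 and 5 without control heart 2 or 5. It was 15 without Sal heart 4, 8 without Sal heart 1 and 13 without control heart 3. Sal hearts 3 and 4 and control heart 2 had the largest mitochondrial shares of all hearts. The part of that share in these counts was not tested.

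**Figure D2:**
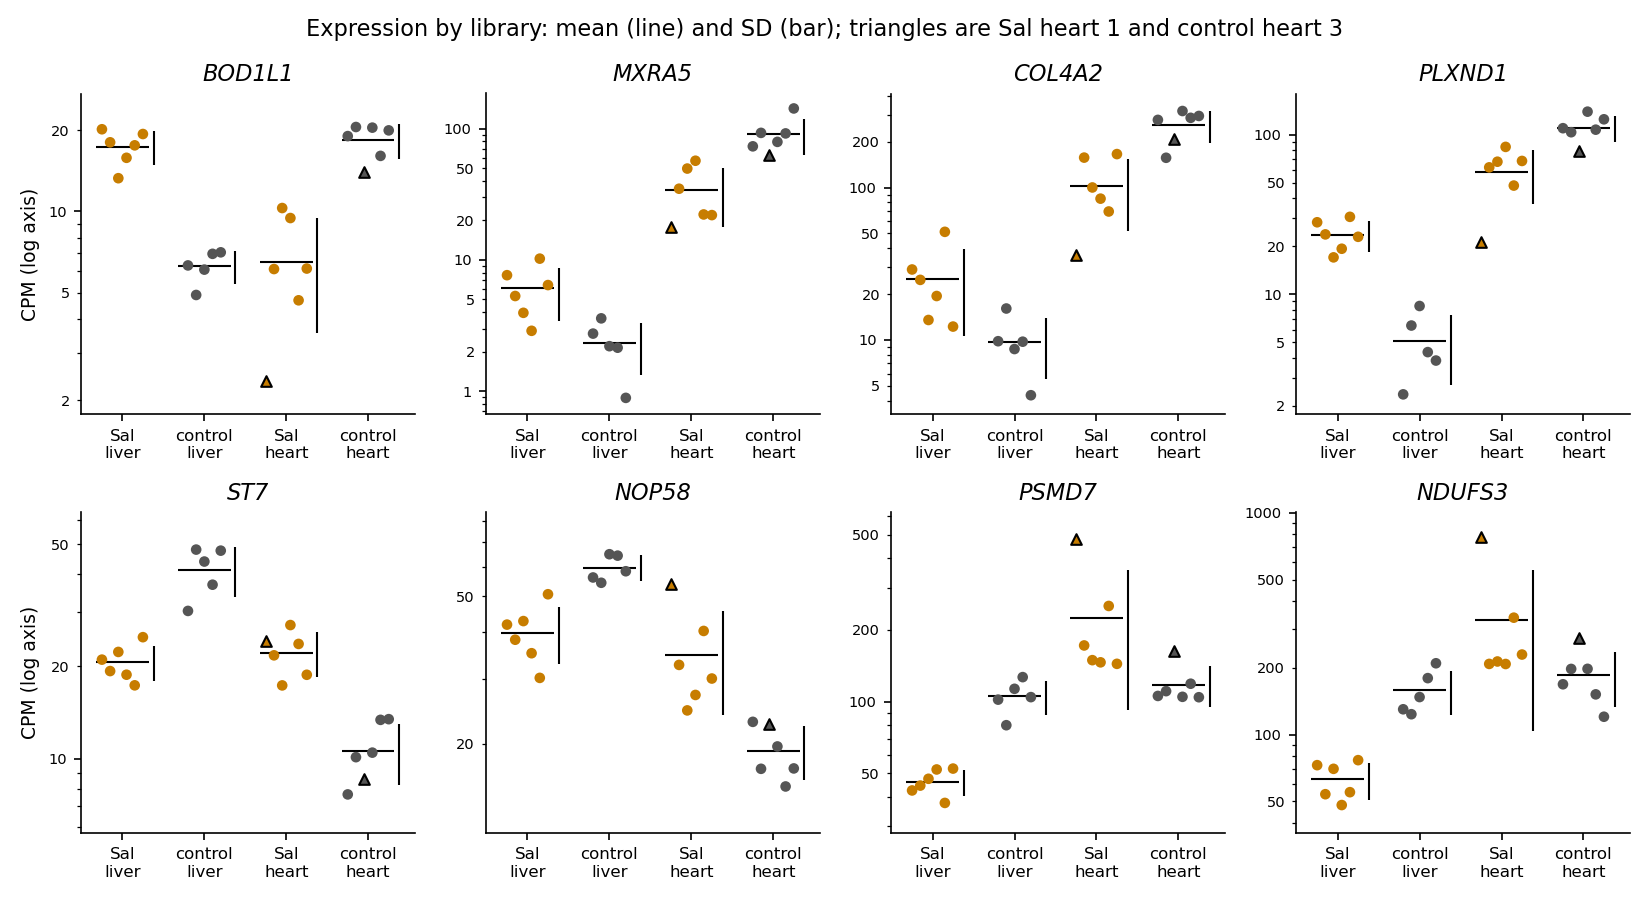
CPM on a log axis in each library, from left to right Sal-exposed liver, control liver, Sal-exposed heart and control heart, for 4 liver-up genes (top row) and 4 liver-down genes (bottom row), with the mean as a line and the SD as a bar (n = 6, 5, 6 and 6). Triangles are Sal heart 1 and control heart 3. Sal heart 1 is the lowest Sal-exposed heart in all 4 genes of the top row and the highest in NOP58, PSMD7 and NDUFS3, at 54.1, 478 and 776 CPM.

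A further set of 10 genes of each sign was taken by the size of the smaller of the liver and heart fold changes, among genes with a symbol, at least 1 CPM and an unadjusted p of at most 0.05 in each tissue. Its values are a description, since they chose the genes. The liver-up genes of this rank held several proteins of the matrix and the cytoskeleton. SYNM, an intermediate filament protein of muscle, had log2 fold changes of 2.23 ± 0.70 in liver (SE, edgeR adjusted p = 0.0285) and -1.86 ± 0.64 in heart (adjusted p = 0.169). LOXL2, which cross-links collagen, had 1.21 to 4.29 CPM in Sal-exposed livers against 0, 0, 0.179, 0.222 and 2.09 CPM in control livers, and 0.182 to 3.09 CPM in Sal-exposed hearts against 3.85 to 10.6 CPM in control hearts. Its heart groups were apart, and control liver 2 alone reached into the range of the Sal-exposed livers. PDGFRB, the receptor for platelet-derived growth factor on pericytes and stellate cells, had 1.94 to 11.4 CPM in Sal-exposed livers (median 4.64) against 0, 0, 0.333, 0.982 and 1.28 CPM in control livers. Its hearts had 2.30 to 26.7 CPM with Sal (median 16.8) and 24.3 to 50.3 CPM in controls (median 44.6).

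F5, coagulation factor V and mainly a product of hepatocytes, had 704 to 1281 CPM in Sal-exposed livers (median 1067) against 212, 279, 372, 390 and 560 CPM in control livers, with no overlap. In heart its level was 0.455 to 3.65 CPM with Sal (median 2.00) and 3.33 to 7.5 CPM in controls (median 5.15). Of the remaining genes of this rank, COL4A2 is described with the collagens. NOL8 (a nucleolar protein), VPS13A (a lipid transfer protein) and GOLGA1 (a golgin) had log2 fold changes of 1.26 to 1.45 in liver and -1.58 to -1.21 in heart. Only GOLGA1 had ranges apart in both tissues.

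The 10 liver-down genes of the same rank have varied known roles. MRPL41 is a mitochondrial ribosomal protein, LSM1 acts in messenger RNA decay, PFDN4 is a subunit of prefoldin, NUS1 acts in dolichol synthesis, NSMCE2 is a SUMO ligase, MAK16 acts in ribosome assembly and EEF1E1 belongs to the aminoacyl-tRNA synthetase complex. With DMAC2L, CAAP1 and ST7 their log2 fold changes were -1.48 to -1.0 in liver and 1.01 to 1.32 in heart. MAK16 had 29.2 to 74.8 CPM in Sal-exposed livers (median 38.4) against 81.7, 92.8, 113, 118 and 121 CPM in control livers, and 69.3 to 201 CPM in Sal-exposed hearts (median 85.7) against 37.2 to 74.5 CPM in control hearts (median 45.2). Sal heart 1 was the highest Sal-exposed heart for all of these genes but ST7, and control heart 3 the highest control heart for all but MAK16 and ST7. The log2 difference of NUS1 was -1.58 and that of PFDN4 -1.62 without Sal heart 1, against -2.41 and -2.38 with all libraries. MRPL41, DMAC2L and CAAP1 lost their call without it, with differences of -1.36, -1.2 and -1.59 (edgeR adjusted p = 0.159, 0.0967 and 0.0517) against -2.45, -2.14 and -2.1 with all libraries.

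The functional lists differed in which sign prevailed among their opposing members, which were fewer than 50% of every list. Of the 42 lists, those of the extracellular matrix, adhesion, guidance receptors, ion transport and chromatin had more liver-up than liver-down members, and those of translation, the mitochondrion, the spliceosome and the proteasome more liver-down than liver-up members. The counts are read against the share of all genes tested, 8.59% liver-up and 6.51% liver-down. Counts under another setting are read against all genes under that setting. Liver-down genes were 286 of 11156 without Sal heart 1, 961 of 11152 without control heart 3 and 492 of 11148 without both. They were 60 of 11158 with library size alone, 318 of 11158 with surrogate variables and 243 of 11105 with liver control 3 included. With the span trend taken out, 621 of 11158 genes were liver-up and 1142 liver-down. Over all genes the median log2 fold change was 0.02 in liver and -0.02 in heart.

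**Figure D3:**
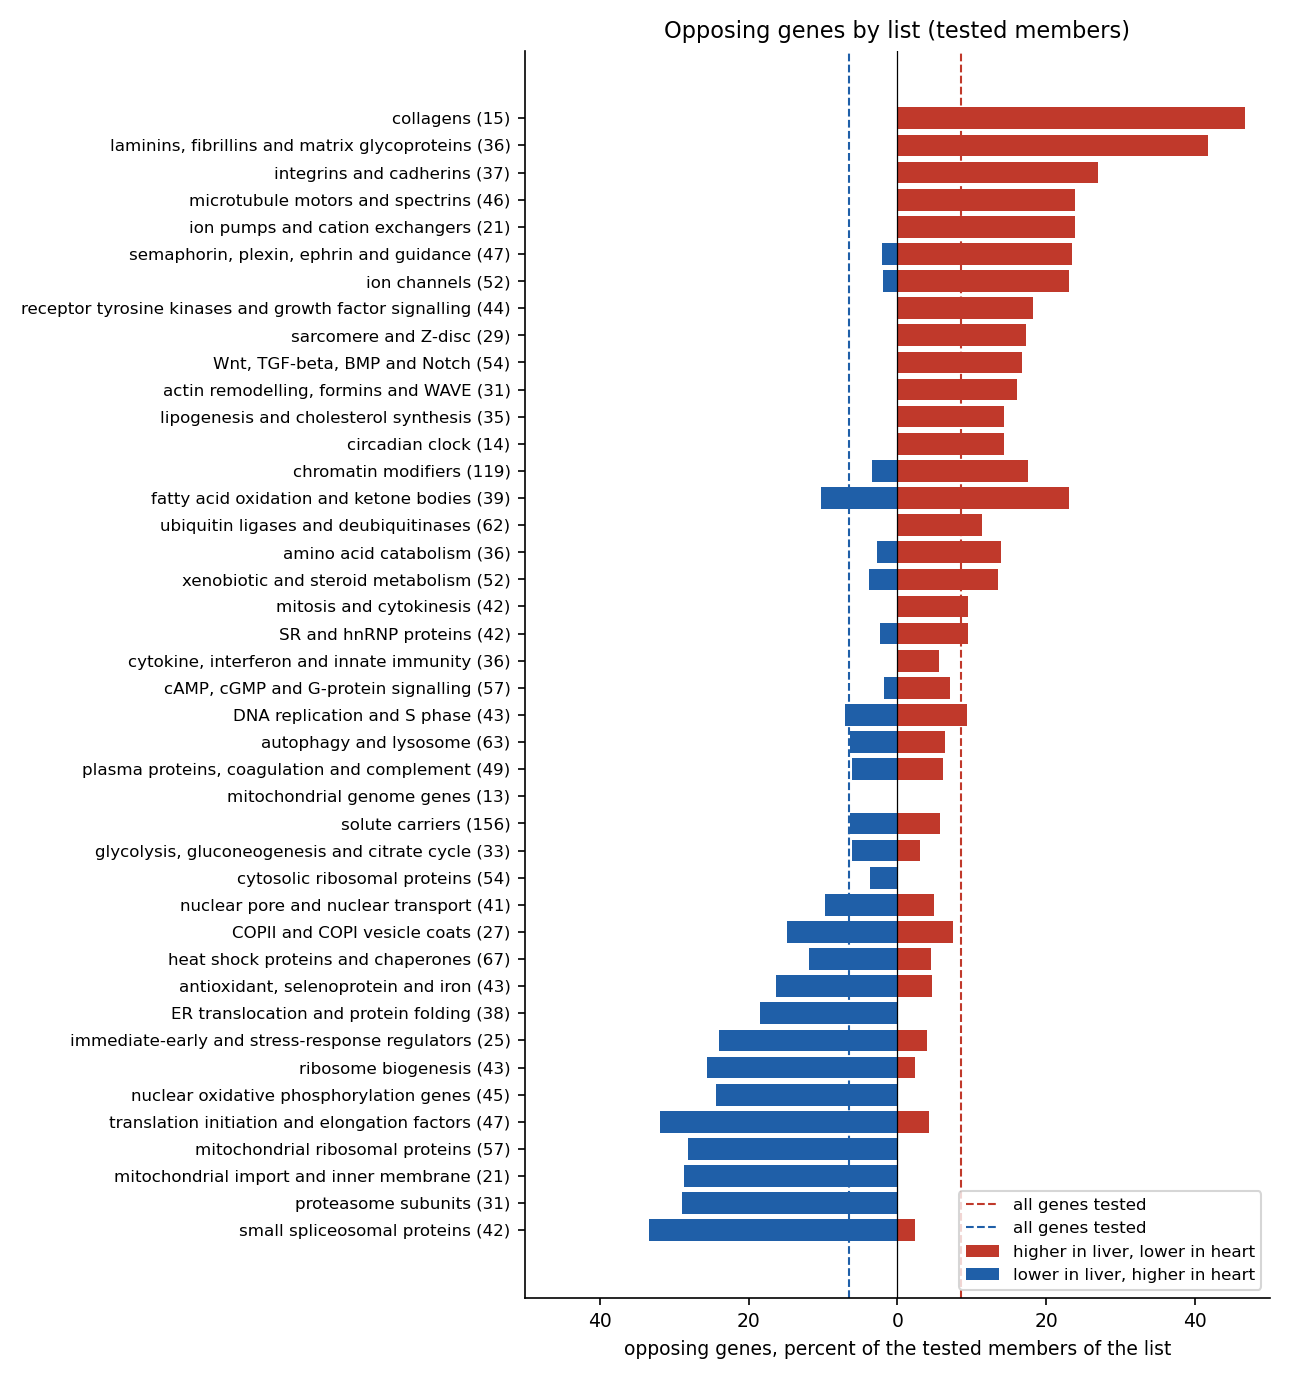
Share of the tested members of each functional list (number in brackets) that were liver-up (red, to the right) or liver-down (blue, to the left), in percent, with the shares of all genes tested as dashed lines. Collagens have the highest liver-up share (46.7%). Small spliceosomal proteins, a list that counts LSM1 of messenger RNA decay, have the highest liver-down share (33.3%), close to that of translation factors (31.9%).

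The extracellular matrix opposed most. Collagens form the fibres and the basement membrane sheets around cells, and laminins and related glycoproteins link those sheets to the cell surface. Of 15 collagens tested, 7 were liver-up (46.7%) and 0 liver-down, and 12 had opposite signs. The list medians were 0.52 in liver, or 0.79 with the 2 genes without counts in a liver group at their bound, and -1.14 in heart. Of 36 laminins, fibrillins and matrix glycoproteins, 15 were liver-up (41.7%) and 0 liver-down, with medians of 0.79 in liver and -0.68 in heart. Neither list changed the sign of a median under any alternative scaling or left-out library tried for the lists. The opposing collagens were COL4A1, COL4A2, COL4A6, COL5A2, COL6A1, COL14A1 and COL15A1.

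COL4A2 (ENSMGAG00000014863, chromosome 1, 135137451 to 135278105), a chain of the basement membrane network, had 12.2 to 51.2 CPM in Sal-exposed livers (median 22.1) against 4.33, 8.71, 9.73, 9.80 and 16.1 CPM in control livers. In heart it had 36.1 to 166 CPM with Sal (median 92.3) and 157 to 318 CPM in controls (median 282). The ranges overlapped slightly in both tissues. Its log2 fold change was 1.36 ± 0.39 in liver (SE, edgeR adjusted p = 0.0178) and -1.33 ± 0.37 in heart (adjusted p = 0.0837). COL4A6, another chain of the same network, had 2.10 to 5.39 CPM in Sal-exposed livers (median 3.35) against 0, 0, 0.0454, 0.0893 and 0.278 CPM in control livers, and 0.546 to 3.53 CPM in Sal-exposed hearts (median 1.87) against 1.52 to 6.02 CPM in control hearts (median 3.10). Its liver groups were apart and its heart groups overlapped.

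LAMA5, a laminin chain of basement membranes, had 8.03 to 37.5 CPM in Sal-exposed livers (median 14.2) against 0.187, 1.18, 3.26, 3.53 and 5.33 CPM in control livers, and 10.1 to 39.7 CPM in Sal-exposed hearts (median 19.9) against 28 to 52.4 CPM in control hearts (median 42.8). THBS1, thrombospondin 1, had log2 fold changes of 2.49 ± 0.44 in liver (SE, edgeR adjusted p = 0.000685) and -0.15 ± 0.38 in heart (adjusted p = 0.897). For THBS1 the opposite sign therefore rests on a heart value that is small against its error. FN1, FBN1, LAMB1, NID1, SPARC and TNC are among the other 13 liver-up genes of this list. Fibroblast and stellate markers (8 of 13 in the table) summed to 62.1 to 173 CPM in Sal-exposed livers and 27.6 to 93.5 CPM in control livers, and to 248 to 461 CPM in Sal-exposed hearts and 359 to 554 CPM in control hearts. Their part in the matrix genes was not tested.

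Without Sal heart 1, 7 collagens and 14 matrix glycoproteins were liver-up, and without control heart 3, 9 and 16. With the span trend of each library taken out, 7 collagens stayed liver-up in number and the matrix glycoproteins fell to 9. The median genomic span of the lists was 31829 bp for collagens and 39444 bp for matrix glycoproteins, against 10643 bp over all genes.

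Adhesion molecules, guidance receptors and growth factor receptors also had more liver-up than liver-down members. Integrins and cadherins bind cells to matrix and to each other, and semaphorins, plexins and ephrins steer migrating cells and vessels. Of 37 integrins and cadherins, 10 were liver-up (27.0%) and 0 liver-down, with medians of 0.55 in liver and -0.40 in heart. Of 47 guidance genes, 11 were liver-up (23.4%) and 1, SEMA4B, liver-down, with medians of 0.58 and -0.27. Receptor tyrosine kinases and growth factor signalling had 8 liver-up of 44 (18.2%), and Wnt, TGF-beta, BMP and Notch 9 of 54 (16.7%), with no liver-down gene in either. In the order given, the median genomic span of these lists was 23627, 35475, 27618 and 18246 bp, against 10643 bp over all genes. Of all tested genes spanning 14551 to 30320 bp 10.5% were liver-up, and of those from 30350 bp 18.4%. A fit without the span trend had 621 of 11158 genes liver-up, against 959 with it. Beyond that fit, the part of gene span in these shares was not tested. The heart median of the Wnt, TGF-beta, BMP and Notch list was -0.04 and turned to 0.01 to 0.04 with nuclear genes alone in the scaling, without the span trend or without Sal heart 1.

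PLXND1, a semaphorin receptor of blood vessels, had 17.0 to 30.6 CPM in Sal-exposed livers (median 23.3) against 2.35, 3.83, 4.33, 6.36 and 8.43 CPM in control livers. Its heart levels were 21.2 to 84.0 CPM with Sal (median 65.1) and 78.7 to 140 CPM in controls (median 109). SEMA3C, a secreted ligand needed for the outflow tract of the heart in mice, had 3.09 to 8.99 CPM in Sal-exposed hearts (median 7.90) against 11.1 to 17.4 CPM in control hearts (median 14.2). In liver it was near the limit of detection, with 0.278 to 0.565 CPM with Sal against 0, 0, 0, 0.0446 and 0.0556 CPM in controls. SEMA3C had no overlap in either tissue and PLXND1 none in liver. Their log2 differences were 3.35 ± 0.40 for SEMA3C (SE, edgeR adjusted p = 6.56e-05) and 3.13 ± 0.42 for PLXND1 (adjusted p = 0.000126).

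EGFR, the receptor for epidermal growth factor, had 48.5 to 87.6 CPM in Sal-exposed livers (median 59.2) against 14.8, 18.6, 21.6, 24.5 and 34.1 CPM in control livers, with no overlap, and 0.728 to 3.63 CPM in Sal-exposed hearts (median 1.40) against 1.64 to 4.10 CPM in control hearts (median 3.04). FAT4 and CELSR1, giant cadherins of planar polarity, had liver log2 fold changes of 1.82 ± 0.33 and 1.24 ± 0.38 (SE) and heart values of -0.17 and -1.06. FZD1, a Wnt receptor, and HEYL, a target of Notch, had heart values of -0.10 and -0.15 with adjusted p of 0.895 and 0.925 by edgeR, so their heart sign is not resolved. Endothelial markers (9 of 14 in the table) summed to 101 to 153 CPM in Sal-exposed livers and 42.2 to 97.8 CPM in control livers, and to 202 to 374 CPM in Sal-exposed hearts and 257 to 344 CPM in control hearts. Their part in the guidance genes was not tested.

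Cytoskeletal motors and ion transport followed. Motor proteins carry cargo along microtubules and actin, and ankyrins and spectrins anchor channels in the membrane. Among 46 microtubule motors and spectrins 11 were liver-up (23.9%) and 0 liver-down, and 7 of the 11 had an unadjusted p of at most 0.05 in both tissues. Over all liver-up genes that held for 209 of 959. It held for 3 of 7 collagens, 4 of 15 matrix glycoproteins, 3 of 10 integrins and cadherins and 3 of 11 guidance genes. For liver-up genes of xenobiotic and steroid metabolism it was 3 of 7, and for those of autophagy and lysosome 3 of 4. It held for 3 of 8 receptor kinase, 4 of 21 chromatin, 1 of 12 ion channel and 0 of 5 ion pump genes. For the 9 Wnt, TGF-beta, BMP and Notch genes and the 5 sarcomere genes it was 0. ANK2, ankyrin B, had 6.61 to 13.9 CPM in Sal-exposed livers (median 8.18) against 1.44, 2.01, 2.32, 3.30 and 4.04 CPM in control livers, and 5.94 to 48.0 CPM in Sal-exposed hearts (median 26.5) against 30.5 to 56.9 CPM in control hearts (median 47.0). MYO10, a myosin of filopodia, had log2 fold changes of 0.81 in liver and -0.85 in heart. Among 52 ion channels 12 were liver-up (23.1%) and 1, GABRB1, liver-down, and among 21 ion pumps and cation exchangers 5 were liver-up (23.8%) and 0 liver-down. With the span trend taken out, liver-up members fell to 4 motors and spectrins, 4 ion channels and 1 ion pump.

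ATP2A2, the calcium pump of the sarcoplasmic reticulum, had 24.1 to 47.9 CPM in Sal-exposed livers (median 27.6) against 9.91, 11.2, 11.2, 16.2 and 19.8 CPM in control livers, with no overlap. In heart it had 548 to 1044 CPM with Sal (median 731) and 888 to 1086 CPM in controls (median 959), which on the log2 scale was -0.34 ± 0.23 (SE) with an adjusted p of 0.51 by edgeR. RYR2, the calcium release channel of heart muscle, had 60.7 to 249 CPM in Sal-exposed hearts (median 169) against 227 to 349 CPM in control hearts (median 320). In liver it had 46 counts in all with Sal and 0 in controls, at least 10.1-fold higher against a floor of 3 counts over the control group. RYR2 is itself a cardiomyocyte marker, and the sum of those markers had a median of 11.8 CPM in Sal-exposed livers against 0.214 CPM in control livers. ATP1B4, a protein of the Na,K-ATPase beta family, was likewise at least 9.92-fold higher in liver from 45 counts, and its heart value was -0.07 with an adjusted p of 0.963. SCN4A, a voltage-gated sodium channel of skeletal muscle, had 122 to 225 CPM in Sal-exposed livers against 22.2, 30.1, 45.7, 67.3 and 70.5 CPM in control livers and at most 0.749 CPM in any heart.

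Of 29 sarcomere and Z-disc genes 5 were liver-up (17.2%), and of 31 actin remodelling genes 5 (16.1%), with no liver-down gene in either. The actin list as a whole did not oppose, with medians of -0.15 in liver and -0.01 in heart. At the adjusted p in liver, 5 of its genes were higher with Sal and 5 lower. The median genomic span was 18225 bp in the sarcomere list and 22218 bp in the actin list, against 10643 bp over all genes. The heart median of the sarcomere list, -0.12, turned to 0.01 without control heart 3. LDB3, a protein of the Z-disc, had 20.3 to 32 CPM in Sal-exposed livers (median 27.1) against 1.71, 2.61, 3.04, 10.1 and 12.5 CPM in control livers, but 281 to 567 CPM in Sal-exposed hearts (median 407) against 336 to 484 CPM in control hearts (median 457). Its heart change was -0.06 ± 0.34 on the log2 scale (SE, edgeR adjusted p = 0.958), so LDB3 is opposing only by the sign of a value near 0. UNC45B, a chaperone of myosin, and CAP2, an actin-binding protein, had no count in any control liver and were at least 5.29-fold and 28.4-fold higher there with Sal. Their heart values were -0.12 and -0.43, neither past the adjusted p. The cardiomyocyte markers had a median log2 fold change of 2.48 in liver and 0.42 in heart. With the 3 markers without counts in a liver group at their bound, the liver median was 3.08. The marker sum was highest in Sal liver 3, at 27.5 CPM, where LDB3 had its lowest Sal-exposed value, 20.3 CPM. UNC45B had 0.282 CPM there, against a maximum of 0.335 CPM in Sal liver 6. CAP2 had 0.847 CPM there, against a maximum of 1.47 CPM in Sal liver 1. The part of heart muscle RNA in these liver values was not tested. INF2, a formin, had 4.95 to 11.8 CPM in Sal-exposed livers against 0, 0, 0.268, 0.333 and 1.46 CPM in control livers, and a heart value of -0.34. In all, 63 of the 959 liver-up genes had no count in any of the 5 control livers and 216 had a mean under 1 CPM in liver.

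Chromatin modifiers alter histones or remodel nucleosomes, and ubiquitin ligases and deubiquitinases add or remove ubiquitin on proteins. Of 119 chromatin modifiers 21 were liver-up (17.6%) and 4 liver-down (3.36%), and the liver median of 0.16 turned to -0.06 without the span trend. ARID1B, a subunit of the BAF remodelling complex, had 10.3 to 23.4 CPM in Sal-exposed livers (median 18.6) against 5.17, 5.36, 7.56, 7.96 and 10.3 CPM in control livers, and 6.18 to 18.8 CPM in Sal-exposed hearts (median 13.0) against 11.4 to 20.6 CPM in control hearts (median 16.9). ARID4B had log2 fold changes of 0.85 in liver and -1.10 in heart. With the span trend taken out, 8 chromatin modifiers were liver-up and 5 liver-down.

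Of 62 ubiquitin ligases and deubiquitinases 7 were liver-up (11.3%, against 8.59% of all genes) and 0 liver-down, the liver median of 0.16 turning to -0.15 without the span trend. USP40, a deubiquitinase, had 6.45 to 8.25 CPM in Sal-exposed livers (median 7.55) against 1.18, 2.86, 3.26, 4.22 and 5.49 CPM in control livers, and 0.485 to 3.17 CPM in Sal-exposed hearts (median 2.26) against 3.61 to 5.02 CPM in control hearts (median 4.47). The groups of USP40 were apart in both tissues. HERC2, a giant ubiquitin ligase, had 40.8 to 62.4 CPM in Sal-exposed livers against 11.7 to 31.7 CPM in control livers, with a heart value of -0.58 (edgeR adjusted p = 0.407).

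Metabolic lists opposed in part. Fatty acid oxidation had 9 liver-up (23.1%) and 4 liver-down genes (10.3%) of 39. The list as a whole did not oppose, with medians of 0.08 in liver and 0.08 in heart and a median log2 difference of -0.18. The liver-up ones include ACOX3, a peroxisomal acyl-CoA oxidase, the acyl-CoA synthetases ACSL1, ACSL4 and ACSL5, and PDK4, which restrains pyruvate oxidation. The liver-down ones include FABP4, HADHB and ACADL, of which HADHB and ACADL act in mitochondrial beta-oxidation. ACOX3 had 9.19 to 22.0 CPM in Sal-exposed livers against 2.21, 2.59, 3.0, 5.90 and 6.51 CPM in control livers, and 3.40 to 4.93 CPM in Sal-exposed hearts against 4.07 to 6.53 CPM in control hearts. Its log2 fold changes in liver and heart were 1.88 ± 0.28 (SE, edgeR adjusted p = 0.000164) and -0.27 ± 0.26 (adjusted p = 0.658). The liver groups were apart and the heart groups overlapped.

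PNPLA2, adipose triglyceride lipase, had 3.27 to 9.41 CPM in Sal-exposed livers (median 6.92) against 0, 0.954, 1.18, 1.44 and 1.65 CPM in control livers, and 4.49 to 30.4 CPM in Sal-exposed hearts (median 18.8) against 16.5 to 39 CPM in control hearts (median 26.5). Although a lipase, it is counted in the list of 35 lipogenesis and cholesterol genes. It was 1 of the 5 liver-up genes of that list (14.3%), with ELOVL5, GPAM and SREBF1 among them. The list medians were -0.04 in liver and -0.14 in heart. Of 52 xenobiotic and steroid metabolism genes 7 were liver-up (13.5%) and 2 liver-down (3.85%). The liver-down ones were the cytochromes P450 CYP4V2 and CYP4F8. The liver-up ones were ABCC8, ABCC1, ABCB11, ALDH1A2, ALDH1A3, ALDH5A1 and ALDH9A1, with no cytochrome P450 among them. ABCC8, the sulfonylurea receptor, had values of 1.01 in liver and -0.77 in heart, and ALDH1A2, which makes retinoic acid, 1.21 and -0.69. Of 36 amino acid catabolism genes 5 were liver-up (13.9%) and 1, GOT1, liver-down. GPT2, mitochondrial alanine aminotransferase, had 68.4 to 267 CPM in Sal-exposed livers (median 154) against 36, 49.9, 64.7, 64.7 and 79.0 CPM in control livers, and at most 1.14 CPM in any heart.

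Among the liver-down genes were many of protein synthesis. Several lists with liver-down members hold short genes. Median genomic spans were 3478 bp for mitochondrial ribosomal proteins and 6186 bp for proteasome subunits. They were 3639 bp for stress regulators and 4912 bp for antioxidant genes, but 10341 bp for translation factors. Of all tested genes spanning 74 to 3672 bp 9.45% were liver-down, and of those spanning 3674 to 7673 bp 9.5%. The part of gene span in these lists was not tested. Initiation and elongation factors bring ribosomes to messenger RNA, and ribosome biogenesis factors assemble the subunits in the nucleolus. Of 47 translation factors 15 were liver-down (31.9%) and 2 liver-up (4.26%). EEF1E1, of the aminoacyl-tRNA synthetase complex, is counted among the 15. The list medians were -0.36 in liver, turning to 0.10 with surrogate variables in DESeq2, and 0.62 in heart. The 15 included the cap-binding proteins EIF4E and EIF4E2, the eIF3 subunits EIF3D, EIF3H, EIF3J and EIF3M, and the kinase EIF2AK1, which restrains initiation when heme is short. Without Sal heart 1 the count of liver-down translation factors was 4, without control heart 3 it was 24, and without both it was 12. With library size alone it was 0 and with surrogate variables 1. With the span trend taken out it was 18, where 1142 of 11158 genes were liver-down.

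EIF1B, a start codon selection factor, had 12.1 to 23.6 CPM in Sal-exposed livers (median 17.7) against 19.1, 25.3, 30.6, 41.3 and 42.8 CPM in control livers, and 27.5 to 49.8 CPM in Sal-exposed hearts (median 31.0) against 15.8 to 32.8 CPM in control hearts (median 19.2). Both tissues overlapped at their edges. Its log2 difference was -1.52 ± 0.33 (SE, edgeR adjusted p = 0.00404). EIF3J had log2 fold changes of -0.84 ± 0.18 in liver and 0.28 ± 0.18 in heart (SE). Of 43 ribosome biogenesis genes 11 were liver-down (25.6%), among them NOP58, NPM1, the pseudouridine synthase DKC1 and NOB1, which cuts the small subunit RNA, and POLR1A, the large subunit of RNA polymerase I, was liver-up. The heart median of that list, 0.25, turned to -0.12 with library size alone, where none was liver-down. Its liver-down members numbered 2 without Sal heart 1, 1 with surrogate variables and 1 with liver control 3 included.

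Cytosolic ribosomal proteins made up a list with opposite signs and few calls. All 54 had a heart value above 0 and 53 had opposite signs, with medians of -0.50 in liver and 0.85 in heart, yet only RPL22L1 and RPS20 were opposing (3.70%, against 6.51% of all genes). Without Sal heart 1 the heart median was -0.06 and none was opposing, whereas without control heart 3 the heart median was 1.60 and 38 were liver-down. The liver median was 0.35 with surrogate variables. Without both Sal heart 1 and control heart 3 the heart median was 0.65 and 17 were liver-down. The heart sign of the ribosomal proteins therefore turned without Sal heart 1 alone and did not turn without both.

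The opposing nuclear genes for mitochondrial proteins in the 3 lists described here were liver-down, while most members of each list were not opposing. Mitochondrial ribosomes translate the proteins encoded in the organelle, and the complexes of oxidative phosphorylation combine these with proteins imported from the cytosol. Of 57 mitochondrial ribosomal proteins 16 were liver-down (28.1%) and 0 liver-up, of 45 nuclear oxidative phosphorylation genes 11 (24.4%) and 0, and of 21 import and inner membrane genes 6 (28.6%) and 0. The medians of these lists were -0.57, -0.56 and -0.49 in liver, turning to 0.09, 0.05 and 0.09 with surrogate variables, and 0.62, 0.62 and 0.55 in heart. Without Sal heart 1 the liver-down members numbered 4, 3 and 1 and the heart median of oxidative phosphorylation was -0.03. Without control heart 3 they numbered 31, 23 and 8, with library size alone 3, 1 and 0, and with surrogate variables 4, 1 and 1. Over all genes the liver-down count under these 4 settings, in the same order, was 286, 961, 60 and 318, against 726 in the reported fit. Without both Sal heart 1 and control heart 3 the liver-down members numbered 13, 15 and 3, against 492 over all genes. With the span trend taken out they numbered 18, 12 and 7, against 1142 over all genes. None of the 13 genes of the mitochondrial genome was opposing.

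NDUFS3 (ENSMGAG00000010620, chromosome 5, 23065979 to 23070621), a core subunit of complex I, had 48.2 to 76.8 CPM in Sal-exposed livers (median 62.6) against 124, 130, 148, 180 and 210 CPM in control livers. The liver groups were far apart. In heart it had 208 to 776 CPM with Sal (median 222) and 120 to 272 CPM in controls (median 183), with Sal heart 1 at the maximum and the next library at 337 CPM. The log2 fold change was -1.33 ± 0.31 in liver (SE, edgeR adjusted p = 0.00481) and 0.83 ± 0.30 in heart (adjusted p = 0.187). MRPL15 had 20.01 to 28.3 CPM in Sal-exposed livers (median 24.5) against 33.5, 44.0, 46.2, 60.3 and 69.4 CPM in control livers, and 32.3 to 121 CPM in Sal-exposed hearts (median 50.8) against 28.7 to 51.3 CPM in control hearts (median 36.4). TIMM17A, a channel subunit of the inner membrane translocase, had 16.3 to 21.4 CPM in Sal-exposed livers against 29.6, 36.1, 45.3, 48.6 and 56.6 CPM in control livers, and 49.6 to 303 CPM in Sal-exposed hearts against 39.6 to 113 CPM in control hearts. In liver all 3 genes had groups apart, and in heart all 3 overlapped. MRPS9, NDUFV2 and TIMM50 had liver values of -1.23, -1.13 and -0.93 and heart values of 0.45, 0.73 and 0.47.

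Proteasome subunits and small spliceosomal proteins also held liver-down genes. The proteasome degrades ubiquitin-marked proteins, and the small spliceosomal proteins pack the RNAs that remove introns. Of 31 proteasome subunits 9 were liver-down (29.0%) and 0 liver-up, and of 42 small spliceosomal proteins 14 (33.3%) and 1. LSM1, named above for messenger RNA decay, is among the 14. The heart medians were 0.62 and 0.45, and the liver medians were -0.54 for the spliceosomal list and -0.36 for the proteasome, the last turning to 0.08 with surrogate variables. Without Sal heart 1 the liver-down members numbered 3 and 4, and without control heart 3 they numbered 12 and 17. With library size alone each list had 1, and with surrogate variables 2 and 3. PSMD7 (ENSMGAG00000008747, chromosome 13, 17412863 to 17417048), a lid subunit, had 37.6 to 52.4 CPM in Sal-exposed livers (median 46.0) against 79.6, 102, 104, 113 and 127 CPM in control livers. Sal-exposed hearts had 144 to 478 CPM (median 160) and control hearts 104 to 163 CPM (median 108), so that only control heart 3 reached the Sal range. Its log2 difference was -2.11 ± 0.37 (SE, edgeR adjusted p = 0.000904), and -1.60 without Sal heart 1.

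SNRNP27, a protein of the tri-snRNP, had 9.24 to 17.4 CPM in Sal-exposed livers (median 12.0) against 21.0, 24.1, 24.6, 40.5 and 41.2 CPM in control livers, and 14.4 to 33.7 CPM in Sal-exposed hearts (median 23.1) against 9.91 to 20.6 CPM in control hearts (median 15.0). PRPF18, a factor of the second splicing step, had log2 fold changes of -0.75 in liver and 0.30 in heart, and PSMA3, a core particle subunit, -0.88 and 0.54. The liver ranges of these 3 genes were apart. PRPF4B, a splicing kinase, was the liver-up exception of its list.

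The secretory pathway and chaperones had fewer members of the same sign. Of 38 genes for ER translocation and folding 7 were liver-down (18.4%), of 27 for COPII and COPI coats 4 (14.8%) with 2 liver-up, and of 67 heat shock proteins and chaperones 8 (11.9%) with 3 liver-up. Without Sal heart 1 the liver-down members of the 3 lists numbered 1, 2 and 4, with library size alone 1, 1 and 0, and with surrogate variables 1, 1 and 5, while without control heart 3 they numbered 11, 4 and 8. They numbered 3, 2 and 2 with liver control 3 included and 2, 3 and 5 without control liver 4. The heart medians of the coat and chaperone lists, 0.05 and 0.29, turned to -0.32 and -0.09 with library size alone. The chaperones included CCT2, CCT4 and CCT6A of the ring that folds actin and tubulin and the HSP90 partners FKBP4 and PTGES3, whereas HSP90AB1 itself was liver-up. ARF4, a GTPase of Golgi coats, had 38.1 to 81.4 CPM in Sal-exposed livers (median 44.9) against 81.5, 101, 137, 138 and 161 CPM in control livers, and 31.8 to 55 CPM in Sal-exposed hearts (median 45.1) against 24.4 to 34.1 CPM in control hearts (median 26.5). SRP72 of the signal recognition particle had log2 fold changes of -0.46 in liver and 0.86 in heart, SEC11C of the signal peptidase -1.04 and 0.34, SEC13 of COPII -0.80 and 0.37, FKBP4 -0.71 and 0.42, and DNAJB14 -0.84 and 0.43.

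Among stress regulators, DUSP1 and SESN1 passed the adjusted p in heart and not in liver. Immediate-early genes are switched on within minutes of a stimulus, and DUSP1 is a phosphatase that turns off MAP kinases. Of 25 such genes 6 were liver-down (24.0%), DUSP1, SESN1, NQO1, JUN, BTG1 and ATF4, and 1, KLF6, was liver-up. The liver-down genes of this list numbered 4 without Sal heart 1, 0 with library size alone, 4 with surrogate variables and 1 with liver control 3 included. DUSP1 (ENSMGAG00000003557, chromosome 15, 8282043 to 8283691) had 12.7 to 26.4 CPM in Sal-exposed livers (median 15.4) against 17.9, 18.6, 19.5, 23.5 and 29.0 CPM in control livers, which overlap. In heart it had 51.3 to 87.3 CPM with Sal (median 60.3) and 21.2 to 28.6 CPM in controls (median 26), with no overlap, and Sal heart 1 (51.9 CPM) was among the low ones. Its heart log2 fold change was 1.36 ± 0.19 (SE, edgeR adjusted p = 0.000513) and its liver value -0.32 ± 0.20 (adjusted p = 0.268). SESN1, a sestrin induced by p53, had 77.9 to 108 CPM in Sal-exposed livers (median 99.0) against 120, 133, 135, 143 and 148 CPM in control livers, and 116 to 221 CPM in Sal-exposed hearts (median 157) against 73.2 to 115 CPM in control hearts (median 82.5). Both tissues were without overlap.

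Of 43 antioxidant, selenoprotein and iron genes 7 were liver-down (16.3%), SELENOT, NQO1, GLRX5, PRDX4, GPX4, GLRX3 and TXN, and CAT and SLC40A1 were liver-up. The liver median of that list was -0.08 and the heart median 0.32, and with library size alone they turned to 0.07 and -0.07. The liver median was above 0 under 6 further settings, at 0.03 to 0.25. SELENOT, a selenoprotein of the ER, had 26.6 to 68.2 CPM in Sal-exposed livers (median 41.8) against 67.9, 71.5, 74.9, 95.5 and 112 CPM in control livers, and 58.2 to 198 CPM in Sal-exposed hearts (median 83.4) against 41.3 to 69.8 CPM in control hearts (median 46.9). NQO1, a quinone reductase, had log2 fold changes of -1.24 ± 0.24 in liver and 0.32 ± 0.23 in heart (SE). The list had 2 liver-down genes without Sal heart 1.

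Of 42 mitosis genes 6 had opposite signs, and 17 fell in liver and 18 fell in heart at an adjusted p of at most 0.05 by edgeR, with medians of -1.29 and -2.20. The 4 opposing ones, TTK, KIF18A, ANLN and KNTC1, were all liver-up (9.52%, close to the 8.59% of all genes). TTK, a spindle checkpoint kinase, had 3.36 to 8.28 CPM in Sal-exposed livers against 0.908 to 7.02 CPM in control livers and 2.42 to 4.51 CPM in Sal-exposed hearts against 6.86 to 10.2 CPM in control hearts. KIF18A, a kinesin of chromosome alignment, had a liver value of 0.91 (edgeR adjusted p = 0.387) and a heart value of -2.70 (adjusted p = 0.0556). Of 43 DNA replication genes 4 were liver-up (9.30%) and 3 liver-down (6.98%), close to the background. RRM1, the large subunit of ribonucleotide reductase, had 7.60 to 12.8 CPM in Sal-exposed hearts (median 9.98) against 16.0 to 27.0 CPM in control hearts (median 22.0), with a liver value of 0.17 (edgeR adjusted p = 0.587). DTL had 22 counts in the Sal-exposed livers and 0 in the control livers, at least 4.85-fold higher.

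In the remaining lists the opposing members were few or split between the signs. They were 4 liver-up and 4 liver-down of 63 autophagy and lysosome genes, 3 and 3 of 49 plasma proteins, 9 and 10 of 156 solute carriers, 2 and 4 of 41 nuclear pore genes, 4 and 1 of 42 SR and hnRNP proteins, 4 and 1 of 57 genes of cAMP, cGMP and G-protein signalling, 1 and 2 of 33 glycolysis and citrate cycle genes, 2 and 0 of 36 cytokine and innate immunity genes and 2 and 0 of 14 clock genes. Some members of these lists had a clear change in 1 tissue only. VPS13C, a lipid transfer protein, had 0.909 to 2.76 CPM in Sal-exposed hearts (median 2.16) against 3.61 to 5.32 CPM in control hearts (median 4.49), and a liver value of 0.59 (edgeR adjusted p = 0.0927). SLC20A1, a phosphate transporter, had 22.4 to 33.4 CPM in Sal-exposed livers (median 28.2) against 39.8, 100, 124, 179 and 209 CPM in control livers, and a heart value of 0.30 (adjusted p = 0.664). PKM, pyruvate kinase, had 14.0 to 26.5 CPM in Sal-exposed livers (median 22.1) against 33.4, 45.5, 73.8, 81.4 and 109 CPM in control livers, and a heart value of 0.26 (adjusted p = 0.679).

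SLC35A1, which carries CMP-sialic acid into the Golgi, and NUP88, a nuclear pore protein, had ranges apart in both tissues, with values of -1.08 and -0.61 in liver and 0.43 and 0.64 in heart. PDHA1, NUP42, KNG1, CTH, MBNL1, MBNL2, ADRA1D and PRKAA2 complete the genes named for their lists. MBNL1 and MBNL2, splicing regulators, had values of 1.00 and 1.52 in liver and -0.25 and -0.70 in heart. KNG1, kininogen, had at most 0.379 CPM in any heart, and ADRA1D and PRKAA2 had no count in any control liver.

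Enterocyte markers (16 of 20 in the table) had a lower sum in Sal-exposed livers, 387 to 634 CPM against 2127 to 19114 CPM in control livers. In heart the sum was 29.4 to 68 CPM with Sal and 44.3 to 99.97 CPM in controls. APOA4, the most abundant of them, had 192 to 471 CPM in Sal-exposed livers against 1921 to 18930 CPM in control livers. SLC5A1, CPO, CDH17 and LCT had a higher median in Sal-exposed than in control livers, 1.28, 0.411, 1.91 and 0.243 CPM against 0.444, 0, 1.36 and 0 CPM, and control maxima of 189, 307, 101 and 80.2 CPM. TMPRSS15 did too, with 0.0299 against 0 CPM and a control maximum of 4.99 CPM. SI and MEP1A had lower Sal medians, 1.58 and 1.85 CPM against 6.72 and 4.92 CPM, and control maxima of 895 and 1188 CPM. None of the 13 tested was opposing, since their heart values were also below 0. Leukocyte markers (13 of 18) summed to 705 to 1384 CPM in Sal-exposed livers against 457 to 1026 CPM in control livers, and to 215 to 632 CPM in Sal-exposed hearts against 194 to 359 CPM in control hearts. Smooth muscle markers (4 of 7) summed to 54.3 to 128 CPM in Sal-exposed livers against 32.2 to 80.7 CPM in control livers, and to 42.1 to 87.2 CPM in Sal-exposed hearts against 64.0 to 148 CPM in control hearts. Erythrocyte markers (3 of 15) summed to at most 17.6 CPM in any library. The part of these cells in the opposing genes was not tested.

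The opposing genes of each sign shared a feature that the rule did not use. Liver-up genes were long, with a median genomic span of 24083 bp, and liver-down genes short, with 6158 bp, against 10643 bp over all genes tested. In 5 bins of equal gene number, from short to long, the liver-up share was 2.42%, 4.12%, 7.48%, 10.5% and 18.4%, and the liver-down share 9.45%, 9.50%, 6.68%, 4.12% and 2.78%. Over all genes of those bins the median liver fold change was -0.16, -0.16, 0.02, 0.15 and 0.31 and the median heart fold change 0.23, 0.12, -0.01, -0.12 and -0.22. Liver-down genes were also the more abundant, with a median of 17.6 CPM in liver and 17.0 CPM in heart, against 4.37 and 5.93 CPM for liver-up genes, and 20.4% of them overlapped another gene model against 9.18% of liver-up genes and 14.0% of all genes.

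**Figure D4:**
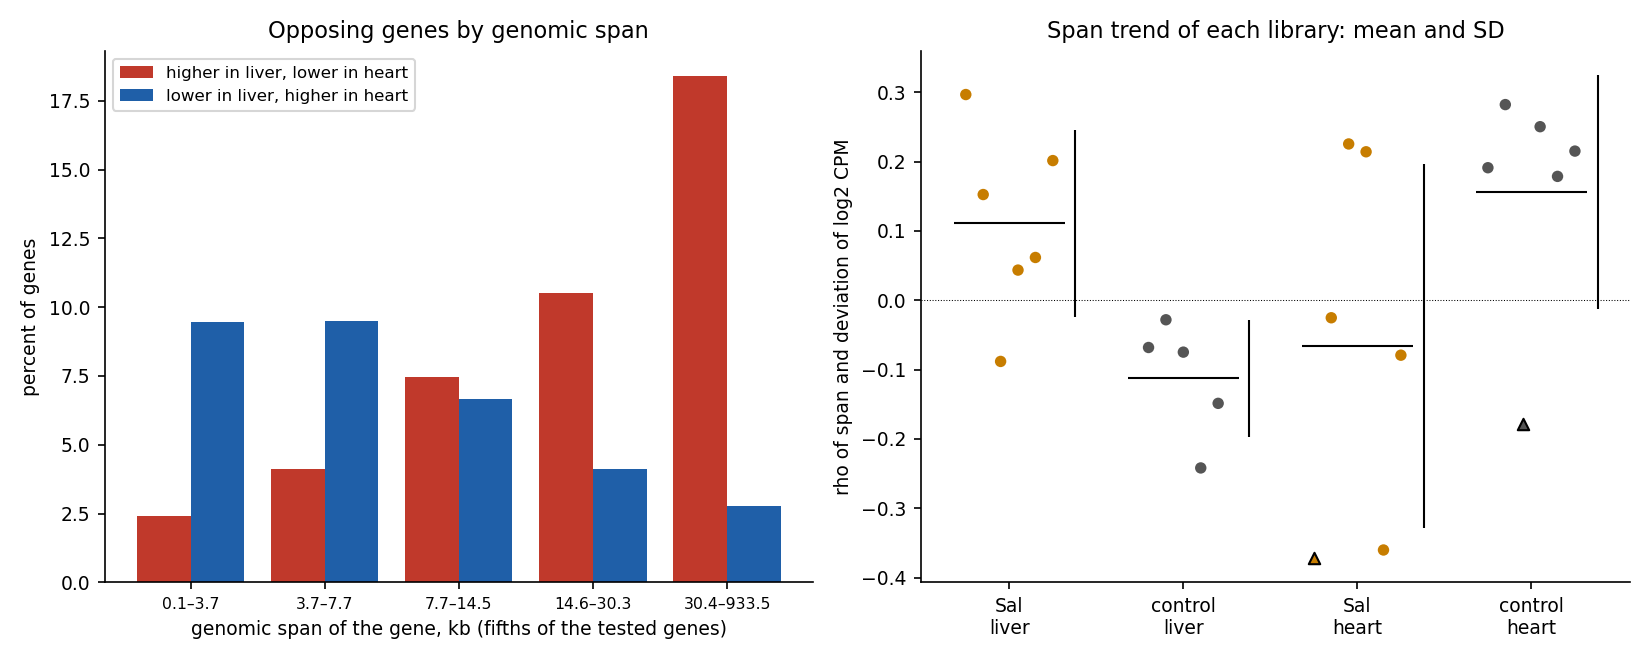
Left, percent of the genes tested that were liver-up (red) or liver-down (blue) in each of 5 bins of genomic span, given in kb. Right, span trend of each library (Spearman's rho across genes), from left to right Sal-exposed liver, control liver, Sal-exposed heart and control heart, with mean and SD (n = 6, 5, 6 and 6) and triangles for Sal heart 1 and control heart 3. The liver-up share rises to 18.4% in the longest bin while the liver-down share drops to 2.78%, and the order of Sal and control means is reversed between liver (0.111 and -0.112) and heart (-0.0661 and 0.157).

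No opposing gene was opposing in the other direction under any of the alternatives or left-out libraries, and the difference changed sign for 7 of them, only with liver control 3 included. The share of liver-up among opposing genes was 56.9%. It was 95.5% with library size alone, a scaling that moved the median over all genes by 0.15 in liver and -0.37 in heart, and 35.2% with the span trend taken out, which moved them by -0.14 and 0.06. It was 84.1% with surrogate variables, 76.6% with liver control 3 included, 77.2% without Sal heart 1, 71.2% without liver control 4, 70.6% without control heart 2, 68.6% without Sal heart 3, 68.1% without Sal heart 4 and 52.2% without control heart 3. Among the counts by sign the liver-down count moved more, to 286 without Sal heart 1, 430 without control heart 2 and 492 without both Sal heart 1 and control heart 3, against 961 without control heart 3 alone. Of the named genes, 12 lost their call without Sal heart 1, all liver-down. Besides MRPL41, DMAC2L and CAAP1, TIMM50 and SEC11C missed the adjusted p (0.0531 and 0.0731), and EIF3J, DNAJB14, SRP72, SEC13, PDHA1, PRPF18 and NUP88 had log2 differences of -0.98 to -0.87, under the fold threshold in size.

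**Figure D5:**
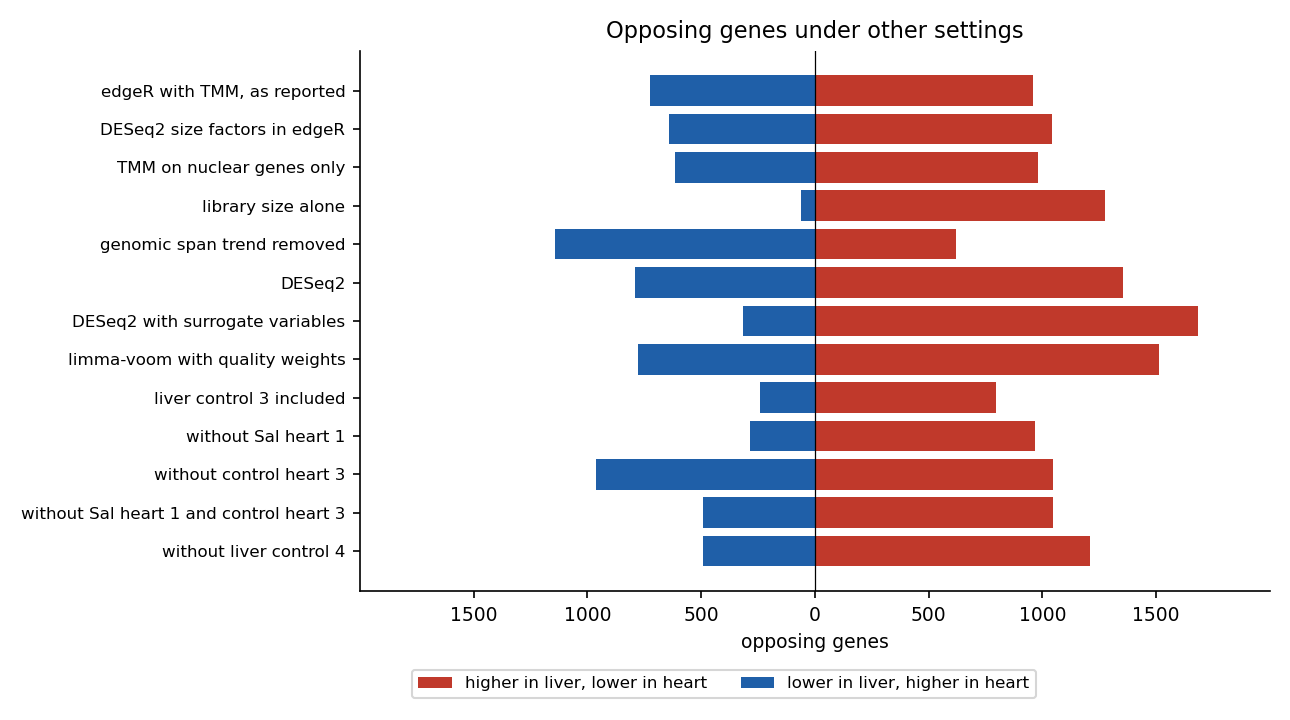
Number of opposing genes under the reported fit (top bar) and under other scalings, tools and left-out libraries, with liver-up genes in red to the right and liver-down genes in blue to the left. The liver-down count runs from 60 with library size alone to 1142 with the span trend taken out, and the liver-up count from 621 with the span trend taken out to 1686 with surrogate variables.

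Of the genes named here, 14 have a gene model that overlaps another (COL4A2, MRPL41, MAK16, CAAP1, EIF3J, MRPL15, PSMA3, SEC11C, DTL, INF2, ANK2, SCN4A, SLC35A1 and SELENOT). No source used here says if strand entered the counting, so reads of such a gene and its neighbour may not be told apart and these values are uncertain.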

How the data were processed

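Liver and heart RNA of turkeys was sequenced from libraries of an mRNA kit. The authors aligned reads with STAR to Turkey_5.1 with Ensembl gene models and deposited RSEM expected counts per gene, here whole numbers, with the start and end positions of each gene. The 12 columns of other libraries in the table were not used, nor were the authors' comparison columns of fold changes and p-values. Of 11587 genes, 4985 carry a deposited symbol and 3481 took one from a RefSeq gene overlapping at least 50% of both spans (of 3931 symbols that could be compared, 3913 were the same).

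A quasi-likelihood model (edgeR 4.0.16, R 4.3.3) was fitted to the 4 groups after filterByExpr, with TMM scaling, robust estimates and a prior count of 2. Contrasts were Sal against control in each tissue and liver minus heart between them, with Benjamini-Hochberg adjustment. Floors of 3 counts over a group cover counting error only. The p-values set each contrast against the spread between libraries, with the liver and heart of 1 bird taken as independent. The steps were tested on simulated data. Alternatives used limma 3.58.1, DESeq2 1.42.0 and sva 3.50.0 (5 surrogate variables).

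Named genes were the 10 of each sign with the largest smaller fold change, the 2 with the smallest p in each list holding at least 3 opposing genes, in its prevailing direction, and all with a symbol past the adjusted p in both tissues. Members and lists were chosen with earlier results of these data known. Some genes that the rule names are not reported here.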

Additional observations from a re-analysis of the deposited data

Results flagged for a closer look

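The Sal effect differed between liver and heart by the tissue by treatment term of edgeR for 1838 genes, the set from which the opposing genes were taken.

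Among the named genes, 377 groups of values were tested for a library set apart from the rest of its group by Dixon's criterion, and 56 were (14.9%). For independent normal values about 1 in 20 would be. That rate cannot be used here, since the genes were named by these same values and share their libraries. The counts are therefore a description. Sal heart 1 held 24 of the 56 and control heart 3 held 11, each time as the highest library of its group and each time in a liver-down gene. In Sal heart 1 the CPM values were 19.8 for MRPL41, 94.3 for NUS1, 9.46 for LSM1, 108.0 for PFDN4, 30.4 for DMAC2L, 98.1 for NSMCE2, 200.9 for MAK16, 5.03 for CAAP1 and 95.6 for EEF1E1. They were 776.0 for NDUFS3, 516.7 for NDUFV2, 303.2 for TIMM17A, 94.2 for SUPV3L1, 478.4 for PSMD7 and 193.1 for PSMA3. They were 14.0 for NOB1, 204.1 for GTPBP4, 39.96 for DNAJB14, 147.1 for SRP72, 198.1 for SELENOT, 60.5 for NQO1, 65.1 for NUP88, 32.2 for NUP42 and 10.7 for SLC35A1. The library with the next highest value of PFDN4 had 37.7 CPM and that of TIMM17A 116.8 CPM.

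In control heart 3 the CPM values were 7.01 for MRPL41, 31.4 for NUS1, 10.4 for DMAC2L, 30.7 for EEF1E1, 208.8 for NDUFV2, 112.7 for TIMM17A, 24.4 for TIMM50, 162.6 for PSMD7, 50.01 for SRP72, 30.01 for SEC11C and 9.82 for NUP42. As the 2 libraries belong to opposite groups, their high values act on the heart fold change in opposite directions.

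Sal liver 6 was the highest Sal-exposed liver for PFDN4 (10.2 CPM), NSMCE2 (15.9 CPM), NOB1 (8.78 CPM), DTL (0.483 CPM) and ATP2A2 (47.9 CPM). Other livers were set apart for ANK2 (13.9 CPM) and SLC35A1 (8.72 CPM) in Sal liver 1, KIF18A (5.21 CPM) in Sal liver 2, THBS1 (18.3 CPM) in Sal liver 5, INF2 (1.46 CPM) in control liver 1, SYNM (2.91 CPM) and LOXL2 (2.09 CPM) in control liver 2, MRPS9 (62.8 CPM) in control liver 4, and HEYL (0.0893 CPM) and NUP88 (62.1 CPM) in control liver 5. Other hearts were set apart for FKBP4 (85.5 CPM) in Sal heart 2, HEYL (2.40 CPM) in Sal heart 3, ARF4 (34.1 CPM) in control heart 2, SCN4A (0.749 CPM) in control heart 4, MBNL2 (12.7 CPM) in control heart 6 and, as the lowest of its group, PDHA1 (246.0 CPM) in control heart 6.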

How the results depend on the processing

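The liver-down count was 60 with library size alone, 1142 with the span trend removed, 318 with surrogate variables in DESeq2 and 243 with liver control 3 included. The liver-up count was 621 with the span trend removed, 1686 with surrogate variables and 1512 with limma-voom. With liver control 3 included, 1116 genes were called for the difference and 1038 were opposing. The genes past the adjusted p in both tissues numbered 77 with DESeq2, 271 with surrogate variables, 309 with limma-voom, 1 with liver control 3 included and 5 with the tissues fitted separately. They numbered 16 without both Sal heart 1 and control heart 3, an alternative chosen after seeing the data. The cause of these shifts was not tested. Leaving out 1 library at a time gave 1442 to 2301 genes called for the difference, 1255 to 2075 opposing, 762 to 1297 liver-up, 286 to 961 liver-down and 3 to 26 past the adjusted p in both tissues. Of the 1685 opposing genes, 56.1% were opposing with library size alone, 72.9% with the span trend removed, 60.7% with surrogate variables and 97.7% with DESeq2. None of the 96 named genes had a difference of the other sign under any alternative, and calls were lost for 29 with library size alone, 24 with liver control 3, 21 with surrogate variables and 12 without Sal heart 1.

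Whether libraries of the same replicate number came from 1 bird cannot be decided from the values, since organs of 1 bird need not deviate together. Deviations of liver and heart libraries of the same number and treatment had r of -0.392 to 0.194 across genes, over 0.1 in 3 of 11 pairs, and those of Sal and control libraries of a tissue -0.461 to 0.164, over 0.1 in 1 of 11. With a replicate block by number within treatment, 1058 genes were called, 995 were opposing and 339 liver-down. With a replicate block by number over all groups, 472 were liver-down and 4 passed the adjusted p in both tissues. A library's best match had its own number in 2 of 11 and 1 of 12 cases.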
